A study of Mus musculus with 4 samples.

Results

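The 9 transcription factor genes described here help to set whether a T cell stays in a progenitor or memory state or becomes an effector cell, and were followed across 4 RNA sequencing libraries. They were chosen by name, and all 9 (Tcf7, Lef1, Id2, Id3, Tcf3, Tcf12, Prdm1, Bach2 and Foxo1) were found among the 22479 gene symbols used. The libraries came from spleens of mice on a C57BL/6 background, and each group was 1 library. Invariant natural killer T (iNKT) cells, innate-like T cells that see lipids on CD1d, were sorted by their T cell receptor beta chain and a CD1d tetramer. CD44-high CD4+ T cells (CD44hi), the antigen-experienced part of the CD4+ T cells, were sorted by CD4, CD44 and the same receptor chain. The CD1d tetramer is not named among these markers, so iNKT cells within CD44hi cannot be told apart. Each cell type was taken from wild-type (WT) mice and from mice with the genotype Ezh2fl/fl CD4-Cre (KO), in which Cre driven by the CD4 promoter removes a floxed part of Ezh2, the histone methyltransferase of Polycomb repressive complex 2, from T cells. The CD4 promoter is active from the thymus onwards. Neither the age and number of mice nor a Cre-only control is stated in the labels.

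TCF-1 (Tcf7) and LEF-1 (Lef1) are related DNA-binding proteins that keep naive, memory and progenitor T cells in a self-renewing state. E proteins (E2A from Tcf3, HEB from Tcf12 and E2-2 from Tcf4) bind E-box DNA as dimers, and the Id proteins Id2 and Id3 lack a DNA-binding region and hold E proteins off DNA; Id2 is known from effector cells and innate lymphocytes and Id3 from naive, memory and follicular helper cells. Blimp-1 (Prdm1) is a repressor of terminal effector and plasma cells. Bach2 restrains effector genes, Prdm1 among them, and Foxo1 drives homing and survival genes of resting T cells. In this nomenclature Tcf3 and Tcf4 are E protein genes and not the Wnt pathway genes Tcf7l1 and Tcf7l2.

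Values are FPKM, fragment counts scaled by transcript length and by the mapped fragments of the library, so levels can be set side by side between genes. A gene counted as measured where either library of a pair reached 1 FPKM, and as called from a 2-fold difference on the log2(FPKM + 1) scale, which shrinks differences of low genes. Ratios are plain ratios of FPKM, with a 95% exact counting interval from estimated fragments, which covers counting error only. With 1 library a group there is no replicate check and no test of any difference. In these bulk samples, fewer cells of a type and less RNA per cell cannot be told apart.

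Ezh2, the targeted gene, was at 15.3 FPKM in WT and 16.8 in KO iNKT cells (KO to WT ratio 1.09, 0.892 to 1.34), and at 28.9 and 18.5 in CD44hi cells (ratio 0.642, 0.591 to 0.698). A value over the whole gene keeps fragments from exons outside the floxed part, so it does not check the genotype labels. The estimated depth was 4990000 fragments for WT and 5330000 for KO iNKT, beside 17870000 and 23420000 for WT and KO CD44hi. All 11 T cell markers were at 1 FPKM or more in each library, with Cd3e at 307 to 357 FPKM, and 2 of the 11 were called lower and 0 higher in KO iNKT. These were Thy1 (449 FPKM in WT iNKT, 82.7 in KO iNKT) and Cd2 (166 and 63.3), and in the CD44hi pair 0 of 11 were called. Of 17 B cell markers, 4 reached 1 FPKM in either iNKT library and 16 in either CD44hi library, with summed levels of 22.3 (WT) and 45.1 (KO) FPKM in iNKT, and of 2844 and 4511 in CD44hi. The 12 plasmacytoid dendritic cell markers summed to 151, 99.5, 221 and 901 FPKM in that order, and Siglech, their defining surface marker, was listed at 0, 0, 11.1 and 75.7. Regulatory T cell markers, 9 genes added after seeing the data, summed to 144, 125.1, 522 and 204 FPKM. Y-linked genes summed to 40.3 FPKM in WT CD44hi and to at most 0.105 in each other library, and Xist was at 46.8 FPKM or more in all 4, so WT CD44hi carried both. It is the only library of its group, so no CD44hi comparison of wild-type cells can be given without it.

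In KO iNKT, Tcf7, Lef1 and Id3 were higher and Id2 and Prdm1 lower than in WT iNKT, while Tcf3, Tcf12, Bach2 and Foxo1 stayed within 2-fold. That is 5 of 9 genes called, against 9.42% of the 10817 genes measured in that pair (6.08% higher and 3.34% lower). In KO CD44hi, Prdm1 alone of the 9 passed the same rule, where 3.58% of 11353 measured genes did (2.44% higher and 1.14% lower). The median log2 difference over the 9 genes was -0.05 in the iNKT pair and -0.16 in the CD44hi pair, beside 0.05 and 0.01 over all measured genes. The members were picked with results of these data known, so these shares are a description.

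**Figure D1:**
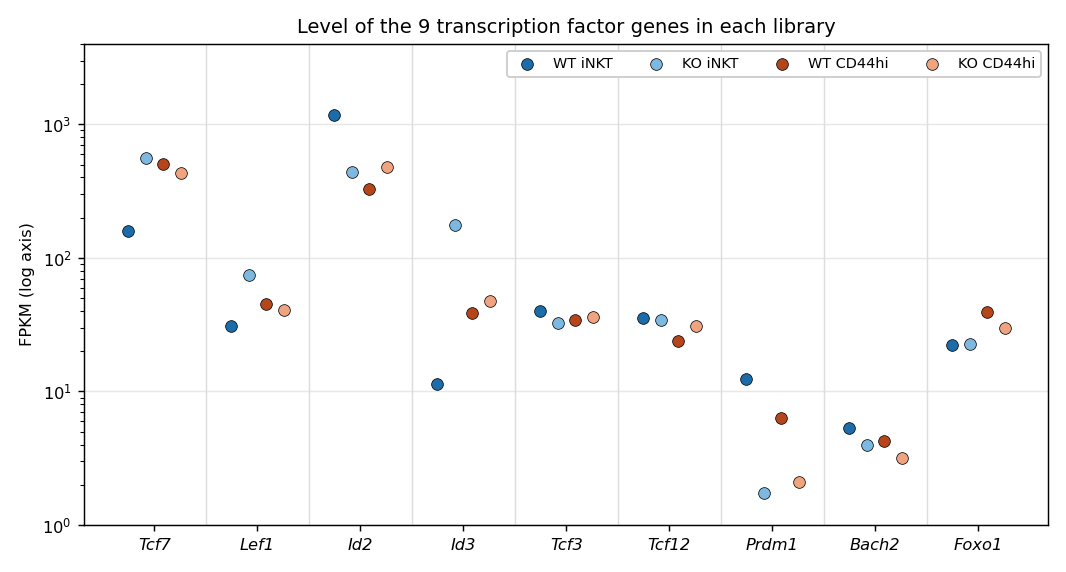
Level of each gene (FPKM, log axis) in the 4 libraries, 1 point a library. WT iNKT has the lowest Tcf7 (159) and the highest Id2 (1172), the 2 iNKT libraries hold the lowest and highest Id3 (11.4 and 175), and Prdm1 is lower in both KO libraries than in both WT libraries.

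TCF-1 is the factor most often used to mark progenitor T cells. Tcf7 (GRCm38 chromosome 11, 52252371 to 52283014, minus strand) had 159 FPKM in WT and 558 in KO iNKT cells, against 505 in WT and 429 in KO CD44hi cells. WT iNKT was the low library, and the other 3 lay close together. Tcf7 was 3.51-fold higher in KO iNKT than in WT iNKT (3.32 to 3.70), and its log2 difference of 1.80 ranked 171 from the top of 10817 genes. In CD44hi it was 1.18-fold lower in KO (1.16 to 1.202), within the 2-fold rule. By level, Tcf7 stood 300th among all genes in WT iNKT and 84th in KO iNKT. The files give 1 value per gene, so long isoforms that bind beta-catenin and short ones that do not are summed.

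Lef1 (chromosome 3, 131110471 to 131224356, plus strand), the partner of TCF-1, had 30.9 FPKM in WT and 74.5 in KO iNKT cells, against 45.4 in WT and 40.4 in KO CD44hi cells. The order of the libraries was the same as for Tcf7, with KO iNKT highest and WT iNKT lowest. KO exceeded WT 2.41-fold in iNKT (2.18 to 2.67), and the ratio in CD44hi was 0.890 (0.846 to 0.937). Tcf7 exceeded Lef1 in every library, by 5.15 times in WT and 7.50 in KO iNKT, and by 11.1 in WT and 10.6 in KO CD44hi. So per unit of length there was more Tcf7 than Lef1 RNA throughout, and the CD44hi pair leaned furthest to Tcf7.

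Measured partners of these factors were within 2-fold in both cell types, as were most measured genes. Over all measured genes 9.42% were called in the iNKT pair and 3.58% in the CD44hi pair. Of 20 genes of corepressors, the beta-catenin arm and chromatin partners, 16 were measured in the iNKT pair and 0 passed 2-fold in either direction (median 0.15). The largest positive difference was in Tle3, a Groucho corepressor, at 20.1 FPKM in WT iNKT and 34.5 in KO iNKT. Runx1, a factor that works beside TCF-1 in T cells, had the largest negative one (26.8 and 19.9 FPKM). Axin2, a classical target of beta-catenin with TCF factors, was at 11.2 and 9.15 FPKM. In the CD44hi pair 0 of 16 measured partners passed 2-fold as well (median 0.05), with Axin2 at 28.4 in WT and 18.3 in KO.

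The Id genes differed in opposite directions in the iNKT pair. Id2 (chromosome 12, 25093799 to 25097140, minus strand) had 1172 FPKM in WT and 441 in KO iNKT cells, against 327 in WT and 475 in KO CD44hi cells. WT iNKT was the high library, where Id2 ranked 30th of all genes. Id2 was 2.66-fold lower in KO iNKT (2.55 to 2.77) and 1.45-fold higher in KO CD44hi (1.41 to 1.49), the second within the 2-fold rule.

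Id3 (chromosome 4, 136143497 to 136145755, plus strand) had 11.4 FPKM in WT and 175 in KO iNKT cells, against 38.7 in WT and 47.9 in KO CD44hi cells. The 2 iNKT libraries were the extremes and the CD44hi libraries lay between them. Id3 was 15.4-fold higher in KO iNKT (12.1 to 19.8), from an estimated 72.5 fragments in WT and 1192 in KO. Its log2 difference of 3.83 ranked 11 from the top of 10817 genes. In CD44hi the ratio was 1.24 (1.14 to 1.35).

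Set against each other within a library, Id2 exceeded Id3 by 103 times in WT and 2.52 times in KO iNKT, and by 8.45 times in WT and 9.93 times in KO CD44hi. Id3 made up 0.961% of the summed Id2 and Id3 FPKM in WT and 28.4% in KO iNKT, and 10.6% in WT and 9.15% in KO CD44hi. Id2 was the more abundant of the pair in all 4 libraries. The other family members were scarce: Id1 was at 0.559 to 1.52 FPKM over the libraries, and Id4 was listed at 0 in all 4.

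Of the E protein genes, the targets of Id proteins, Tcf3 and Tcf12 spanned less than any Id gene of the 9. Tcf3 (chromosome 10, 80409514 to 80433647, minus strand) had 39.95 FPKM in WT and 32.5 in KO iNKT cells, against 34.5 in WT and 36.0 in KO CD44hi cells, a span of 1.23 times from lowest to highest. Tcf12 (chromosome 9, 71842688 to 72111871, minus strand) had 35.3 FPKM in WT and 34.01 in KO iNKT cells, against 23.95 and 31.1 in CD44hi cells, with WT CD44hi the low library. Tcf3 was 1.23-fold lower in KO iNKT (1.09 to 1.39), and the interval of Tcf12 in that pair held 1 (ratio 0.963, 0.836 to 1.11). In CD44hi the ratios were 1.04 for Tcf3 (0.981 to 1.11) and 1.297 for Tcf12 (1.197 to 1.41).

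The third E protein gene, Tcf4, spanned the widest range of the E protein genes. Tcf4 was at 0.140 FPKM in WT iNKT and 0.129 in KO iNKT, about 1.28 and 1.27 fragments, and at 2.99 in WT and 13.1 in KO CD44hi. It made up 0.185% of the summed E protein FPKM in WT iNKT and 16.3% in KO CD44hi. Plasmacytoid dendritic cells depend on E2-2, and 11 of their 12 markers were called higher in KO CD44hi, Tcf4 among them. The part of those cells in the CD44hi values of Tcf4 and of the other members was not tested.

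With Id2 and Id3 summed over Tcf3, Tcf12 and Tcf4, the Id to E protein ratio of FPKM was 15.7 in WT and 9.25 in KO iNKT, and 5.96 in WT and 6.53 in KO CD44hi. Id RNA outweighed E protein RNA in every library, most of all in WT iNKT. Without Tcf4 the CD44hi ratios were 6.27 and 7.81. RNA ratios do not give protein amounts.

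**Figure D2:**
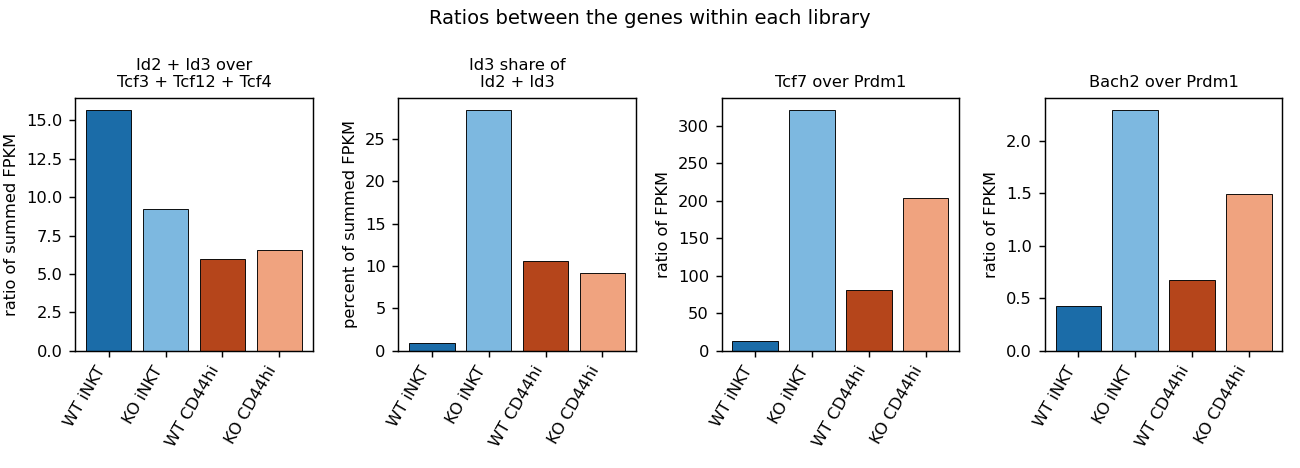
Ratios of FPKM between the genes within each library, 1 bar a library, axes from 0. KO iNKT has the largest Id3 share (28.4%) and the largest Tcf7 to Prdm1 ratio (321), and WT iNKT the smallest of both (0.961% and 12.8).

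Of 14 other helix-loop-helix genes, 8 were measured in the iNKT pair, with 0 higher and 1 lower (median 0.00), beside 9.42% of all measured genes called. The lower one was Bhlhe40, a repressor that supports cytokine production by effector T cells, at 74.9 FPKM in WT iNKT and 14.7 in KO iNKT. In the CD44hi pair 9 were measured, of which Tcf4 and Hes1, a Notch target, were higher and Bhlhe40 (45.3 to 21.95 FPKM) and Ascl2 lower. Over all genes measured in that pair 3.58% were called. Ascl2, an early factor of follicular helper T cells, was at 1.98 FPKM in WT and 0.309 in KO CD44hi.

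Prdm1 was the one gene of the 9 that passed the rule in both cell types. Prdm1 (chromosome 10, 44437177 to 44528501, minus strand) had 12.4 FPKM in WT and 1.74 in KO iNKT cells, against 6.27 in WT and 2.10 in KO CD44hi cells. Both KO libraries lay below both WT libraries. Prdm1 was 7.14-fold lower in KO iNKT (5.05 to 10.4), from an estimated 250 fragments in WT and 37.4 in KO, and its log2 difference of -2.29 ranked 29 from the bottom of 10817 genes. In KO CD44hi it was 2.98-fold lower (2.52 to 3.54), with a log2 difference of -1.23 that ranked 74 from the bottom of 11353 genes. The 2 KO libraries differed by less than counting error (ratio of KO CD44hi to KO iNKT 1.21, 0.849 to 1.76).

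Markers of other cells moved beside Prdm1 in the CD44hi pair. Effector regulatory T cells carry Blimp-1, and 6 of 9 regulatory T cell markers were called lower and 0 higher in KO CD44hi, Foxp3 being at 53.8 FPKM in WT and 13.4 in KO. Plasma cells also carry it, and 2 of 5 measured plasma cell markers were called higher, with summed levels of 106 FPKM in WT and 237 in KO CD44hi. All 5 measured red cell and platelet markers were higher too (median 2.14), summing to 151 FPKM in WT and 727 in KO CD44hi. Myeloid cell markers had 2 of 15 higher and 0 lower (median 0.15), with sums of 702 and 1179 FPKM. The 2 were Tyrobp (121 in WT, 305 in KO), also an NK cell marker, and Ly6c2 (48.9 and 161). Nearly level were C1qa (47.3 and 50.5), Lyz2 (34.7 and 33.7) and Csf1r (20.8 and 18.2). Of 11 measured NK cell markers 3 were higher and 0 lower in KO CD44hi (median 0.18), beside 2.44% and 1.14% of all measured genes. The list summed to 177 FPKM in WT and 410 in KO CD44hi, most of it Tyrobp. Klrb1c, high in WT iNKT (177), was at 14.9 and 58.5 in CD44hi, and Ncr1 at 1.42 and 0.565. The part of any of these cells, or of iNKT cells, in the CD44hi values of Prdm1 and the other members was not tested. In the iNKT pair Foxp3 was at 0.446 and 0.115 FPKM, and the plasma cell markers summed to 106 and 113. Nearly all of that iNKT sum was Ssr4 (102 and 109 FPKM), which was at 61.4 in WT and 73.7 in KO CD44hi. Igj of the same list was at 1.43 and 0.661 in iNKT, against 40.3 and 154 in CD44hi.

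The sequence before a RefSeq transcript start of Prdm1 is printed because it holds letters searched for 2 other members, Foxo1 and Bach2. Those of Lef1 and Id2 are printed because they hold E-boxes, the letters E proteins bind. The Prdm1 and Id2 runs lie inside the gene spans given above, so they precede a transcript start and not the outermost start of the gene. Windows of 250 bases upstream of RefSeq transcript starts (build GRCm38.p6) were searched on both strands. The letters were CTTTGA (TCF-1 and LEF-1), CANNTG (the E-box), GNGAAAG (Blimp-1), GTAAACA (Foxo1) and TGANTCA. The last is a loose form, with any middle base, of the AP-1 core, which also lies within Bach2 sites. All 9 genes had a window, 15 windows in all. In the printed runs, given 5′ to 3′ along the gene's strand, capitals mark these matches, none of which overlap. The Prdm1 run is chr10:44458749-44458998 (minus strand), the Lef1 run chr3:131110047-131110296 (plus strand), and the Id2 run chr12:25096254-25096342 (minus strand), the 89 bases of its window that lie outside annotated exons.
Prdm1: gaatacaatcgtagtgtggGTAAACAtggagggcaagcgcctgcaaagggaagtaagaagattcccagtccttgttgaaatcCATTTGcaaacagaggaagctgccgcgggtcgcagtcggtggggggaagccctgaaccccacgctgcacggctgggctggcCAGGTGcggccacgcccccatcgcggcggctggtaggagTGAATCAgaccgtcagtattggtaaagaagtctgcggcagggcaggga
Lef1: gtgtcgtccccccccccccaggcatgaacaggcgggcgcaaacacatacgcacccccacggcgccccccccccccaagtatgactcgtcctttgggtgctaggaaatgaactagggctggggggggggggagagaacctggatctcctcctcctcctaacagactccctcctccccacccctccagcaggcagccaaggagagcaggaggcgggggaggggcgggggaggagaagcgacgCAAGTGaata
Id2: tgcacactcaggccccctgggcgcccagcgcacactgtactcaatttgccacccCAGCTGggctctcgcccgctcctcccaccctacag

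The Prdm1 run holds the Foxo1 letters 231 bases and the AP-1 letters 48 bases upstream of the start, beside E-boxes at 168 and 87 bases. Its AP-1 match, TGAATCA, has A as the middle base, where the AP-1 core has C or G. Over all 32851 windows of that length, 3.17% hold the Foxo1 letters, 6.75% the AP-1 letters and 66.2% an E-box. The Foxo1 letters and the AP-1 letters were each in 1 of the 15 windows, that of Prdm1. For the AP-1 letters this lies near the share of all windows, and for the Foxo1 letters it rests on 1 match. The Lef1 run holds an E-box 10 bases from the start and the Id2 run one at 196 bases. E-boxes were found in windows of 7 of the 9 genes and in 11 of the 15 windows, so this share lies near that of all windows. The E-box printed for Lef1 also lies 36 bases from a nearby start of that gene, so it was counted in each of these overlapping windows. The TCF letters were in 2 of the 15 windows and the Blimp-1 letters in 2, beside 13.8% and 19.4% of all windows. A match is a run of letters and not a bound site.

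Bach2 (chromosome 4, 32238804 to 32586108, plus strand), which restrains Prdm1, had 5.35 FPKM in WT and 3.99 in KO iNKT cells, against 4.22 in WT and 3.15 in KO CD44hi cells. It was the least abundant of the 9 genes in both WT libraries, and lower in the KO than in the WT library of each cell type. The differences were small, at 1.34-fold in iNKT (1.097 to 1.64) and 1.34-fold in CD44hi (1.201 to 1.502), and neither passed the rule. The Bach2 to Prdm1 ratio of FPKM was 0.430 in WT iNKT and 2.29 in KO iNKT, and 0.674 in WT and 1.49 in KO CD44hi. Prdm1 RNA thus exceeded Bach2 RNA in both WT libraries and lay below it in both KO libraries. The Tcf7 to Prdm1 ratio was 12.8 in WT and 321 in KO iNKT, and 80.6 in WT and 204 in KO CD44hi.

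Genes that share targets or complexes with Blimp-1 and Bach2 were mostly within 2-fold, as were most measured genes. Over all measured genes 9.42% were called in the iNKT pair and 3.58% in the CD44hi pair. All 20 of these partner genes were measured in the iNKT pair, with 1 higher, 0 lower and a median of 0.15. Batf, an AP-1 factor of effector and follicular helper cells, was at 36.5 FPKM in WT iNKT and 76.0 in KO iNKT. Bcl6, the counterpart that represses Prdm1, was at 5.59 and 10.8 FPKM and did not pass the rule. Bach1, the closest relative of Bach2, was at 5.85 and 4.32, and Irf4, which acts with both Blimp-1 and Batf, at 4.84 and 6.88. For CD44hi cells the 1 gene called of 20 was Irf8, a plasmacytoid dendritic cell gene as well (22.9 FPKM in WT, 105 in KO), and the median was -0.17.

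Foxo1 (chromosome 3, 52268336 to 52353221, plus strand) had 22.3 FPKM in WT and 22.6 in KO iNKT cells, against 39.4 in WT and 29.6 in KO CD44hi cells. The iNKT libraries did not differ beyond counting error (ratio 1.01, 0.927 to 1.11) and both below the CD44hi libraries. In CD44hi it was 1.33-fold lower in KO (1.28 to 1.38). B cells also carry Bach2, Foxo1, Id3 and the E protein genes, and 2 of 16 measured B cell markers were higher and 0 lower in KO CD44hi (median 0.63). Their part in the CD44hi values was not tested. Foxo1 is controlled largely by its export from the nucleus, which RNA does not show.

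**Figure D3:**
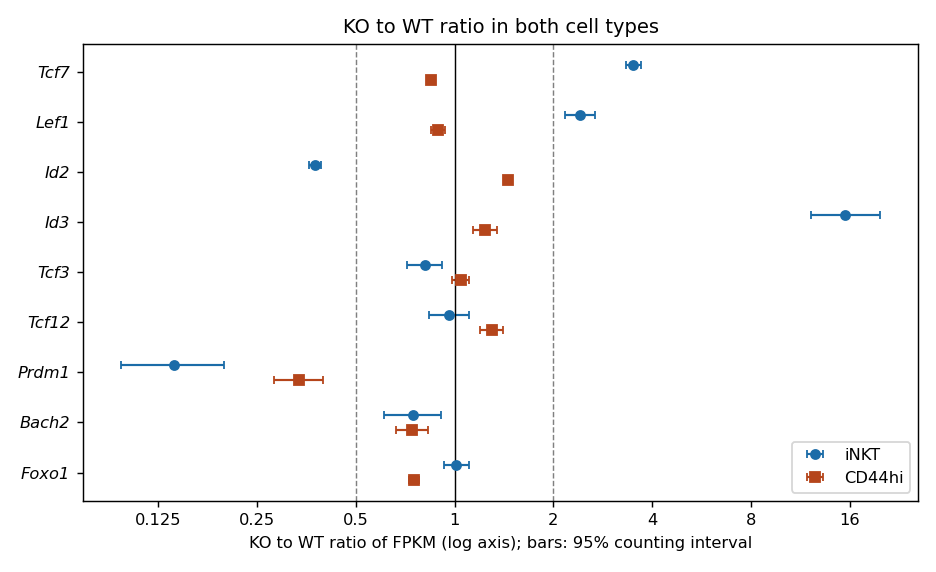
KO to WT ratio of FPKM for each gene in iNKT (circles) and CD44hi (squares), on a log axis with 95% counting intervals and dashed lines at 2-fold. Tcf7, Lef1 and Id3 lie beyond 2-fold to the right in iNKT alone, Id2 to the left in iNKT alone, and Prdm1 to the left in both.

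Genes known to be driven by Foxo1 went both ways in the iNKT pair. KO iNKT had 2 higher and 6 lower of 17 measured (median -0.44), beside 6.08% higher and 3.34% lower over all measured genes (median 0.05). Txnip, a brake on glucose uptake, was at 426 FPKM in WT iNKT and 113 in KO iNKT, and Tsc22d3, a glucocorticoid-induced regulator, at 54.1 and 14.5. Ccr7, the lymph node homing receptor, was higher, at 13.2 and 34.6. Among the homing and survival genes most tied to Foxo1, Il7r was at 598 and 316 FPKM, Klf2 at 47.7 and 51.0 and S1pr1 at 27.0 and 41.8, all within 2-fold. In the CD44hi pair 1 of 17 was called, Ctla4, lower in KO (123 to 33.8 FPKM), which is also a regulatory T cell marker, and the median was -0.43. Over all genes measured in that pair 3.58% were called.

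A list of other forkhead factors and of the PI3 kinase arm had 4 of 20 genes lower and 0 higher in KO iNKT (median -0.18). Over all genes measured in that pair 3.34% were lower and 6.08% higher. The 2 with the largest differences were Pik3ip1, an inhibitor of PI3 kinase, at 67.5 and 28.4 FPKM, and Pik3r1, its regulatory subunit, at 65.2 and 27.4. Foxo3, the other main FOXO factor of T cells, was at 14.9 and 9.81. Among CD44hi libraries 0 of 20 passed the rule (median -0.04), beside 3.58% of all measured genes.

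Genes that mark the 2 fates were then counted. Over all genes measured in the iNKT pair, 6.08% were higher and 3.34% lower in KO (median 0.05). Of 23 measured progenitor and memory genes, KO iNKT had 8 higher and 3 lower (median 0.47). Cxcr5, the follicle homing receptor, was at 0.963 FPKM in WT iNKT and 18.8 in KO iNKT, and Myb, a factor of stem-like memory cells, at 7.04 and 56.6. The survival gene Bcl2 (23.6 in WT, 6.31 in KO) and the chemokine gene Xcl1 (150.0 and 37.2) were lower. Of 19 measured effector genes, 1 was higher and 16 lower (median -2.03), with Tbx21, which encodes T-bet, at 70.4 and 19.5 FPKM and Ifng at 112 and 12.9. The exception was Gzma, granzyme A, at 1.72 FPKM in WT iNKT and 89.0 in KO iNKT. Gzma and Id2 are also active in NK cells, and of 11 measured NK cell markers 4 were higher and 5 lower. The higher ones were Gzma, Eomes (0 in WT iNKT, 3.90 in KO iNKT), Klra8 (1.09 and 3.33) and Klra9 (4.11 and 15.4). The list summed to 308 FPKM in WT and 242 in KO iNKT. Most of the WT sum was Klrb1c (177 in WT, 96.2 in KO) and Klrk1 (75.4 and 22.3). The defining NK cell receptor Ncr1 was at 0.154 and 0.285. The part of NK cells in the iNKT values was not tested. Part of these genes had been reported on from the same libraries when the lists were drawn up, so the counts are no independent evidence of a direction.

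For CD44hi cells the medians lay nearer 0. Over all genes measured in that pair, 2.44% were higher and 1.14% lower in KO (median 0.01). Of 25 progenitor and memory genes 0 were higher and 3 lower (median -0.29), led by Dapl1, a gene of naive-like cells, at 26.6 FPKM in WT and 3.10 in KO. Of 25 effector genes 1 was higher and 4 lower (median -0.07). In the iNKT pair 19 of this list were measured. Zeb2 was not among those, at 0.0217 FPKM in WT and 0.0402 in KO iNKT, against 2.48 in WT and 3.44 in KO CD44hi. The part of myeloid and other cells in the CD44hi values of this list was not tested. Klrg1, a receptor of terminal effector cells and effector regulatory T cells, was at 9.32 and 1.499 FPKM, and Il18rap, an IL-18 receptor subunit, at 13.3 and 29.7. T-bet RNA was at 27.3 in WT and 37.3 in KO CD44hi.

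**Figure D4:**
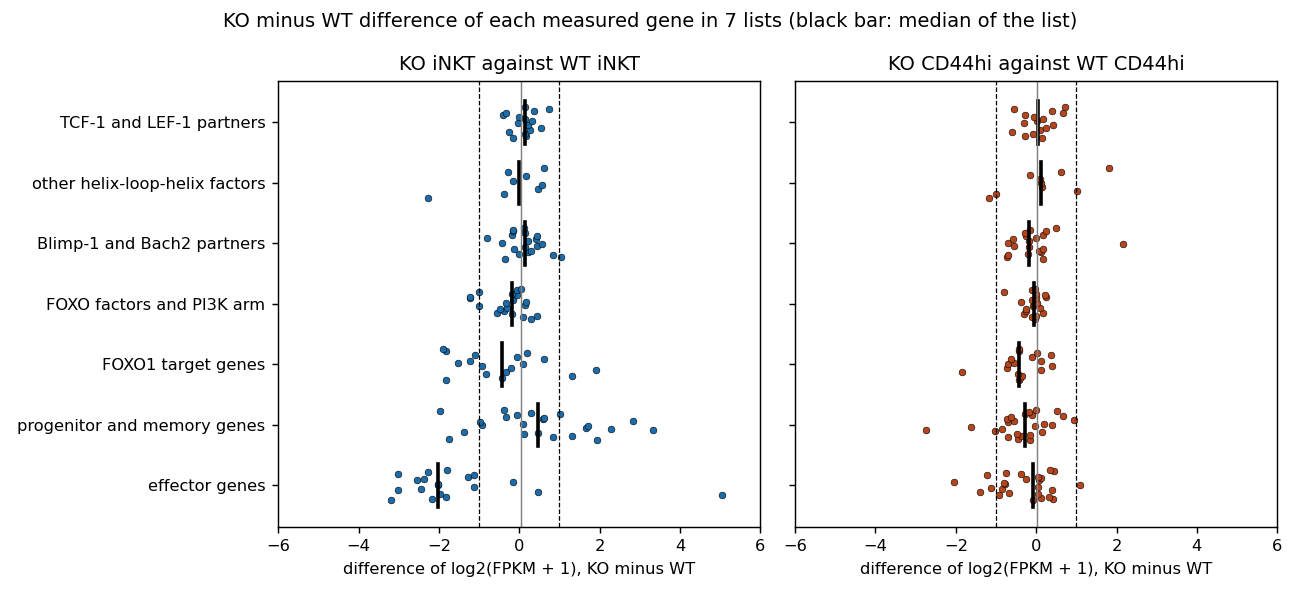
Difference of log2(FPKM + 1), KO minus WT, of each measured gene in 7 lists, iNKT at left and CD44hi at right. Each point is a gene, the thick bar the median of its list, the grey line the median of all measured genes and the dashed lines 2-fold; effector genes lie to the left in iNKT (median -2.03).

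Between the cell types, the WT libraries differed in 3 of the 9 genes, where 14.6% of 11218 measured genes were called (3.65% higher and 10.9% lower in iNKT). WT iNKT had 3.17 times less Tcf7 (3.02 to 3.34), 3.41 times less Id3 (2.68 to 4.39) and 3.58 times more Id2 (3.46 to 3.70) than WT CD44hi. Prdm1 was 1.98-fold higher in WT iNKT (1.69 to 2.32) and Foxo1 1.76-fold lower (1.65 to 1.89), both short of the rule. In the KO pair Id3 was the 1 gene called, against 12.1% of 11470 genes (3.02% higher and 9.07% lower in iNKT), and it was higher in iNKT (3.65-fold, 3.38 to 3.95), the reverse of the WT pair. Tcf7 was 1.302-fold higher in KO iNKT than in KO CD44hi (1.27 to 1.34), and Id2 1.08-fold lower (1.04 to 1.12). Each library stands in 2 of these 4 comparisons, so their values are not independent. Depth and the marker genes of other cells also differed between the iNKT and CD44hi libraries, and with 1 library a group a batch cannot be told apart from cell type.

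Taking the genotype difference in iNKT less that in CD44hi, 5 of 9 genes were past 2-fold on the log2(FPKM + 1) scale, where 10.2% of 10453 genes measured in both pairs were. The differences of differences were 3.53 for Id3, 2.04 for Tcf7, 1.41 for Lef1, -1.06 for Prdm1 and -1.94 for Id2. The other 4 lay between -0.42 and 0.42. No interaction could be tested with 1 library a group.

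**Figure D5:**
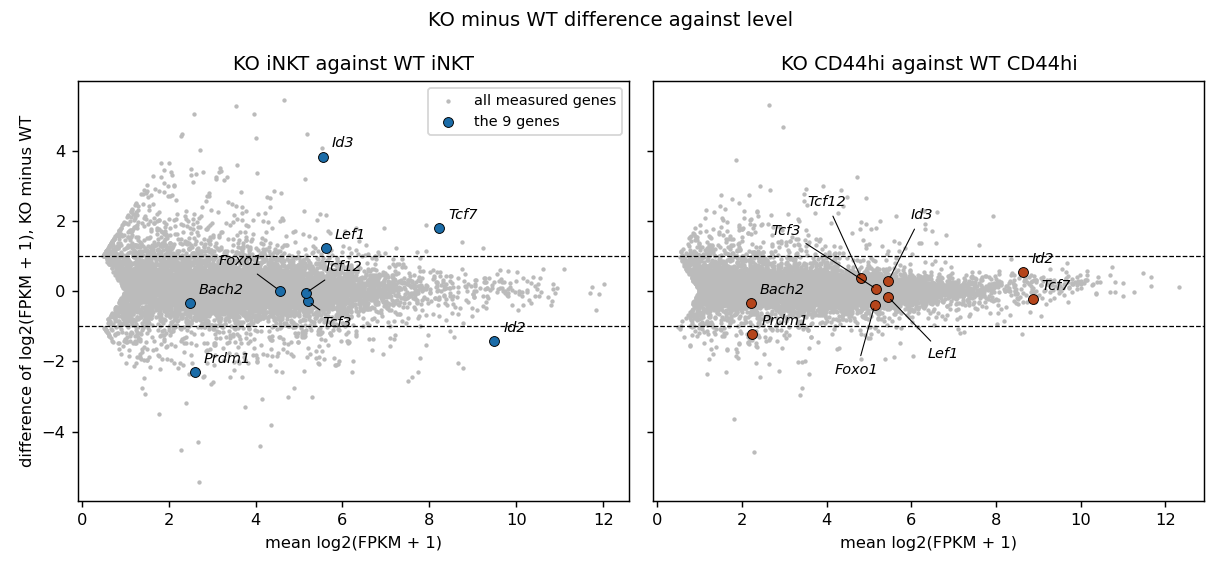
KO minus WT difference of log2(FPKM + 1) against the mean level, for all measured genes (grey) and the 9 named genes, with dashed lines at 2-fold. Id3 (3.83), Tcf7 (1.80) and Lef1 (1.24) lie above and Id2 (-1.41) and Prdm1 (-2.29) below the lines in iNKT, and in CD44hi all but Prdm1 lie within the dashed lines.

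In the order of the 4 libraries by level, 20 of 27 neighbouring pairs over the 9 genes had a counting interval above 1. The 7 pairs within counting error were 2 of Tcf3, 2 of Tcf12, and 1 each of Prdm1, Bach2 and Foxo1. Each pair of neighbours of Tcf7, Lef1, Id2 and Id3 was apart by more than counting error, which says nothing of the spread between mice.

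Genes with the most similar pattern were sought for the 5 members that ranged over at least 1 on the log2(FPKM + 1) scale, by the root mean square difference of centred log2 values over the 4 libraries, among 8303 genes. Nearest to Prdm1 was Bhlhe40 (0.156), followed by C1qtnf6 (0.256) and Ifng (0.272). Nearest to Id2 were Zfp512 (0.046), Sema4a (0.047) and Txk (0.060), and nearest to Id3 Litaf (0.227), Nhedc2 (0.357) and Thbs1 (0.379). Tcf7 was followed most closely by Eps8l1 (0.090), Egln3 (0.133) and Ccr4 (0.144), and Lef1 by Lig1 (0.038), Cdc20 (0.051) and Rnaset2a (0.052). Tcf7 and Lef1, though ordered alike, were 0.449 apart. The distances rest on 4 libraries and are a description.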

How the data were processed

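Per the labels' protocols, TRIzol and Picopure columns were used to isolate RNA. The library kit was Illumina's TruSeq RNA v2, in which strand is not marked. Each deposited table gives the authors' FPKM per gene symbol. Cufflinks 2.0.2, TopHat 1.3.2 and Bowtie2 2.0.0 are listed with mm10 in the submitters' processing notes; the annotation, filters and strand setting are not given in the sources used here. Antisense genes overlap exons of Lef1, Bach2 and Foxo1 in GENCODE M21 and cannot be told apart from them.

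The 26 date-like symbols of the CD44hi files and 779 small RNA symbols were left out, and rows of 240 repeated symbols were summed. Depth was estimated from the whole-number steps of low FPKM in single-transcript genes of at least 3000 bases; 1 fragment in 2 kilobases is worth 0.100 (WT iNKT), 0.0938, 0.0280 and 0.0214 FPKM (KO CD44hi). Fragments of a gene used the median length of its coding transcripts in GENCODE M21. Computation used Python 3.11.15 with scipy 1.17.1 and was tested on simulated data. No test was possible with 1 library a group. Promoter sequences are from RefSeq.

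The 9 members, the lists, the motifs and the rules for named genes were chosen with earlier results of these data known. All members are named, with up to 4 genes per list and comparison (the 2 largest and 2 smallest differences), a fixed set of regulators and the 3 nearest patterns. Axin2 in the iNKT pair and the regulatory T cell markers were added after their values were seen. Alternatives were other pseudocounts (0.1 and 0.5 FPKM), filters, scalings, call sizes and depth estimates.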

Additional observations from a re-analysis of the deposited data

Results flagged for a closer look

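In 3 genes the KO to WT difference had opposite directions in the 2 cell types, with both counting intervals off 1. The difference in iNKT less that in CD44hi was 2.04 for Tcf7 and 1.41 for Lef1, which were higher in KO iNKT and lower in KO CD44hi. It was -1.94 for Id2, which was lower in KO iNKT and higher in KO CD44hi. With 1 library a group these differences between cell types were not tested, and the CD44hi side of each was within 2-fold. The part of NK and other cells in the CD44hi values was not tested either.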

How the results depend on the processing

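No paired analysis was possible because each group is 1 library. The same members were called in every comparison under both other pseudocounts, both other filters, median ratio scaling and the largest row of a repeated symbol. At a 1.5-fold call, 5 members were called between the WT libraries, with Prdm1 and Foxo1 added, and 2 between the KO libraries, with Lef1 added. Of 144 recomputed log2 differences of members, 1 changed sign: Foxo1 in the iNKT pair, from 0.02 to -0.03 with median ratio scaling, so it has no direction. The pseudocount moved Prdm1 most. At 0.1 FPKM its log2 difference was -2.77 against -2.29 in the iNKT pair, the largest move of all (0.48), and -1.53 against -1.23 in the CD44hi pair. All 36 intervals kept their side of 1 with the other depth estimate. The Id to E protein ratio without Tcf4 was 6.27 in WT and 7.81 in KO CD44hi.

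The background counts over all genes moved more. In the iNKT pair 1019 genes were called, against 1536 with a pseudocount of 0.1, 650 from 5 FPKM and 2482 at 1.5-fold. In the CD44hi pair 406 were called, against 715, 256 and 1124 in that order. Between the WT libraries 1634 were called, against 1013 from 5 FPKM and 3291 at 1.5-fold, and between the KO libraries 1386, against 821 and 3041. With the background held to genes reaching 5 FPKM in iNKT cells, an alternative chosen after seeing the data, the counts were 650, 164, 688 and 489. Fewer genes are tested under the filters. At the iNKT depth a low gene such as Prdm1 in KO iNKT rests on 37.4 estimated fragments, which sets its wide interval.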
